A study of Mus musculus with 6 samples.

Results

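The genes described here are 44 messenger RNAs of the glycolytic pathway and of the response to low oxygen, read in small extracellular vesicles (sEV, the smaller membrane vesicles that cells shed) of mouse cortical neurons. The list names 17 enzymes of glycolysis, running from hexokinase to lactate dehydrogenase, and 27 other known targets of the hypoxia-inducible factor (HIF). Members were found by gene symbol among the 53379 Ensembl identifiers of the deposited tables, and all 44 were found. Of these, 43 carried the listed symbol in GENCODE M21, and Ero1a was found under its older symbol Ero1l. Aldoa has more than 1 identifier, and the lowest, ENSMUSG00000030695, was used.

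HypEV, the vesicles of neurons whose treatment is labelled OGD/R and which the series calls hypoxic, had 3 libraries, and NorEV, the vesicles of control neurons called normoxic, also had 3. All donor neurons were primary embryonic cortical neurons of WT genotype, and the labels do not spell out OGD/R, so low oxygen and other components of that treatment cannot be told apart. The labels do not say whether libraries of a group came from separate cultures. The p-values set the difference between groups against the spread between these libraries only, and that spread may be technical. A difference in a vesicle RNA can be fewer vesicles with that RNA or less of it per vesicle, and these cannot be told apart here. Levels are relative to all fragments of a library, so a difference can also come from other RNAs that take more or less of the total.

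HIF is a transcription factor whose alpha subunit is hydroxylated and degraded while oxygen is present. At low oxygen it persists, binds short core sequences in promoters and enhancers, and in many cell types raises glucose transporters, glycolytic enzymes, mitophagy receptors, carbonic anhydrases and secreted factors. Glycolysis splits glucose into pyruvate in the cytosol, and lactate dehydrogenase turns pyruvate into lactate, which keeps the pathway running when respiration is limited. Neurons rely mostly on respiration, and several glycolytic steps have isoforms that are enriched in brain.

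Levels are given in FPKM, the fragments on a gene per kilobase of its length, relative to all fragments of that library. The HypEV libraries held 2141611, 1445674 and 1320916 fragments counted on genes, and the NorEV libraries 1092724, 1413374 and 1494499. On a gene of 1 kilobase, 1 read was worth 0.467 to 0.757 FPKM in HypEV and 0.669 to 0.915 FPKM in NorEV. A member held a median of 47 reads per library, with single values between 0 and 453 reads. All 12 pan-neuronal markers looked up (among them Tubb3, Map2 and Rbfox3) were above 0 in every library, as were all 6 astrocyte markers looked up. One short annotated microRNA gene, Gm23935, and its near-identical copies took 49.4%, 1.95% and 24.3% of the reads in HypEV 1, 2 and 3 and 4.30%, 0.555% and 0.300% in NorEV 1, 2 and 3. FPKM divides by a total that holds this family, so the values of all other genes are lower where the family is abundant. Fold changes of members are therefore also given with the family left out of the totals, which changed the sign of 11 of the 44 members' fold changes.

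The promoters of the members held the core letters of the HIF binding site more often than promoters of all genes. RefSeq promoters (GRCm38.p6, 250 bases before to 50 after the start of transcription) matched 39 of the 44 members. The core ACGTG was searched on both strands, where its reverse reads CACGT, and it was found in 25 of 39 member promoters (64.1%), against 21.8% of the 27025 genes in the table. The variant core GCGTG, whose reverse reads CACGC, was found in 28 (71.8%), against 35.2%. Either core stood in 21 of 22 promoters of HIF targets (95.5%) and in 14 of 17 promoters of glycolytic enzymes (82.4%), against 46.7% of the 27025 genes. A match of these letters is a description and not a binding site. The list was made up of known HIF targets and glycolytic genes, so a higher share could be foreseen and is no result of these libraries. A gene counted if any of its promoters matched, and the comparison genes were not matched for base content. The promoters of 3 members are printed, chosen by their levels. Ldha and Ankrd37 had the highest mean levels of their lists, and Pgk1 stood lower in every HypEV library than in any NorEV library. Whether promoter sequence bears on the vesicle levels was not tested. Capitals mark ACGTG or GCGTG on either strand, and a longer capital run holds cores that overlap (CACGTG reads as ACGTG on both strands). Ldha lies at chr7:46845554-46845853 on the plus strand (1 of 2 promoters the table gives for this gene), Pgk1 at chrX:106186850-106187149 on the plus strand, and Ankrd37 at chr8:45999801-46000100 on the minus strand.
Ldha: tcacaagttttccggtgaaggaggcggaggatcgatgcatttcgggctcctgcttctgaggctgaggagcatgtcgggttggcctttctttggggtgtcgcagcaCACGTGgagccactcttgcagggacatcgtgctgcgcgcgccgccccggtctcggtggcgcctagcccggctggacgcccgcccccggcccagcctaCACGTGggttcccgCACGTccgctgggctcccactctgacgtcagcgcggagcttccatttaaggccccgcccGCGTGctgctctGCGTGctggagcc
Pgk1: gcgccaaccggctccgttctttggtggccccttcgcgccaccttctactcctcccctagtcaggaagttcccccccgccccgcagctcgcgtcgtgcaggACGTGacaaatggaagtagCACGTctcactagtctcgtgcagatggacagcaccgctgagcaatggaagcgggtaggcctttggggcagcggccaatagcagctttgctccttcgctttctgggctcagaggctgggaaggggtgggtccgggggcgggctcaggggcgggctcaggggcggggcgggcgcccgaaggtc
Ankrd37: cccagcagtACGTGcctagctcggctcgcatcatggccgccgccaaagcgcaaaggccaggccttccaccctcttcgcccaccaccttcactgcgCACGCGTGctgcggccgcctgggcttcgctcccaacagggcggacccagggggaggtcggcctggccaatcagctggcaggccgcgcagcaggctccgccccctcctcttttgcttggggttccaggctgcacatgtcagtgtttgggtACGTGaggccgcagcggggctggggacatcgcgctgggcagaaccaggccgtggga
The Ldha window held 7 cores, the Ankrd37 window 4 and the Pgk1 window 2. The 25 members with ACGTG had a median log2 fold change (HypEV over NorEV) of -0.60, and the 14 members without it -0.39, beside a median of -0.44 over all tested genes. On totals without the Gm23935 family these medians were -0.21 and 0.0161, beside -0.12 over all tested genes.

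No member passed the test between HypEV and NorEV. Values were tested as log2(FPKM + 1) with limma over 44125 genes whose mean reached 1 FPKM, as it did for all 44 members, and 0 of 44 members had a Benjamini-Hochberg adjusted p under 0.05 (0.0159% of all tested genes did). Fold changes are on this scale, where the added 1 makes them too small for genes with low values. The smallest adjusted p among members was 0.720, for Ldha and Pgk1. At an unadjusted limma p under 0.05 stood 1 of 44 members, Ldha, which was lower (6.13% of all tested genes were lower at that level, and 0.635% higher). Fitted to reads worked back from FPKM and gene length, limma-voom on totals without the Gm23935 family called 0 of 40 members (0.142% of 42340 genes were called). At an unadjusted p under 0.05 in that fit, 1 member was lower (4.88% of genes) and 1 higher (2.23%). With the family kept in the totals limma-voom also called 0 of 40 (0.548% of 42345 genes), with 4 lower at that level (11.2% of genes) and 0 higher (0.375%). limma on FPKM without the family called 0 of 44 members (0.0157% of genes), and 0 were at an unadjusted p under 0.05 (3.71% of genes were lower and 1.88% higher). After median centring limma again called 0 of 44 (0% of genes), with 0 at that level (3.16% lower and 2.55% higher).

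**Figure D1:**
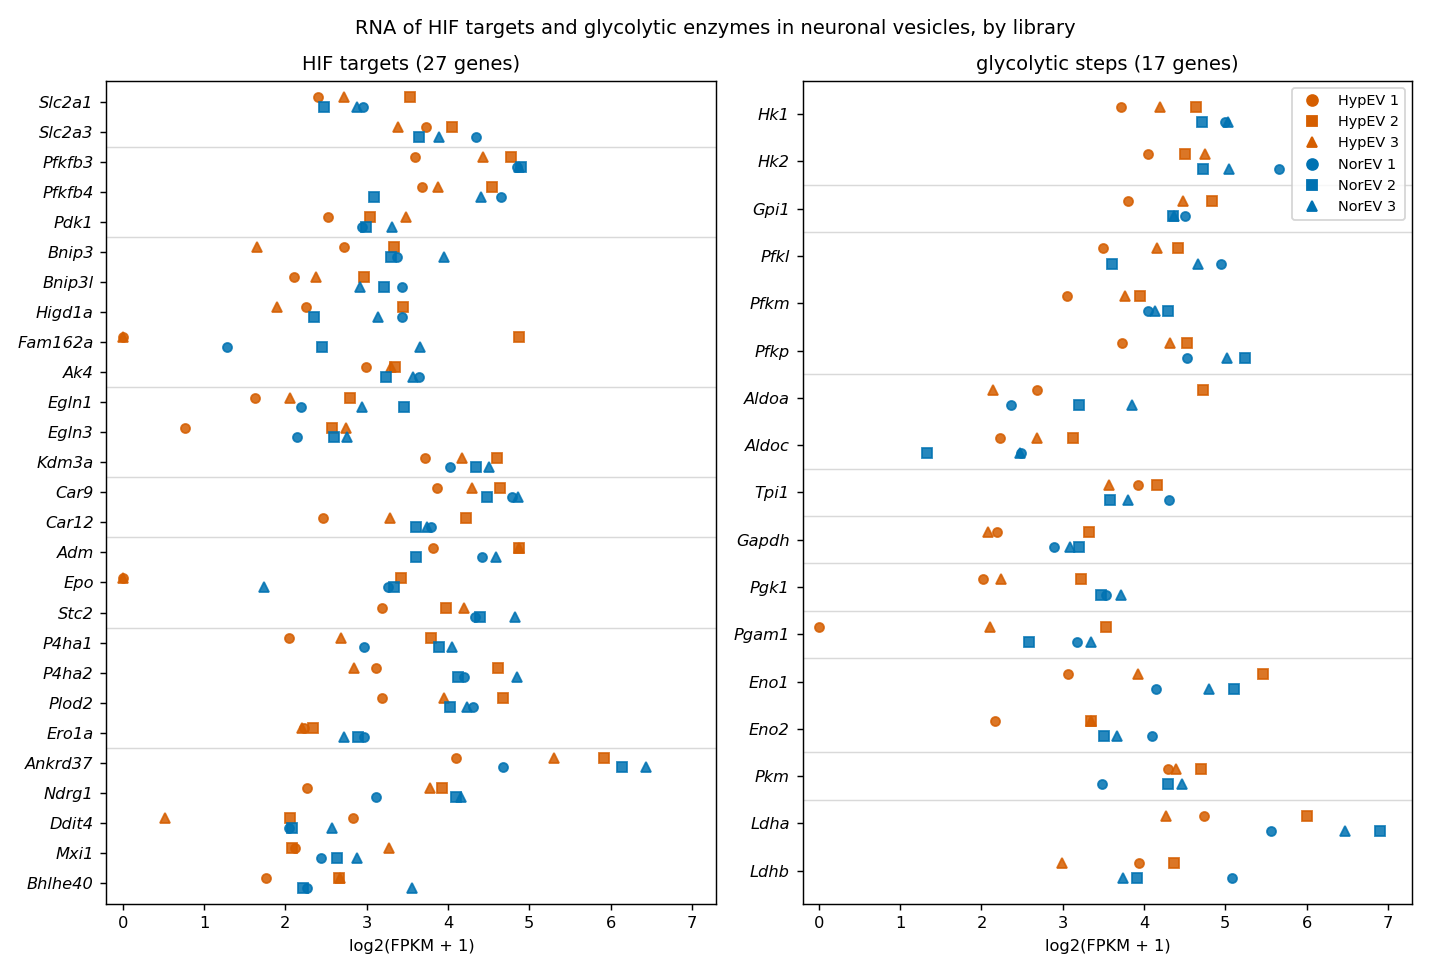
Level of each member in each library, on the log2(FPKM + 1) scale, with HIF targets at the left and glycolytic enzymes at the right; orange marks are the 3 HypEV libraries and blue marks the 3 NorEV libraries. Ldha and Ankrd37 have the highest means of their panels but not the highest value in every library, and Epo, Fam162a and Pgam1 reach 0 in HypEV libraries.

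The glycolytic enzymes were read along the pathway. Hexokinase, which traps glucose in the cell as glucose 6-phosphate, was read as 2 isoforms. Hk1, the main hexokinase of brain, had 12.1, 23.9 and 17.3 FPKM in HypEV and 30.8, 25.3 and 31.6 FPKM in NorEV. Each HypEV library of Hk1 lay below each NorEV library, with a log2 fold change of -0.73 ± 0.40 (SE; limma adjusted p = 0.739), and with the family left out of the totals the groups again did not overlap (-0.31). Hk2, the isoform that HIF raises in many cells, had 15.5, 21.7 and 26.0 FPKM in HypEV and 49.5, 25.4 and 31.9 FPKM in NorEV. Its groups overlapped through the highest HypEV library (log2 fold change -0.71 ± 0.42, and -0.28 with the family left out, also with overlap). Gpi1, glucose-6-phosphate isomerase, had 13.0, 27.5 and 21.3 FPKM in HypEV and 21.8, 19.5 and 19.7 FPKM in NorEV. The HypEV libraries of Gpi1 lay on both sides of NorEV, at a log2 fold change of -0.04 ± 0.41. With the family left out it was 0.39, and all 3 HypEV libraries (25.7, 28.0 and 28.2 FPKM) were above all 3 NorEV libraries (22.7, 19.6 and 19.7 FPKM).

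Phosphofructokinase, the step at which glycolysis is mainly controlled, had 3 isoforms at similar levels. Pfkp, the platelet-type isoform that is also made in brain, had 12.2, 22.2 and 18.9 FPKM in HypEV and 22.1, 36.9 and 31.4 FPKM in NorEV. The highest HypEV and the lowest NorEV library of Pfkp were nearly equal, and the log2 fold change was -0.74 ± 0.41, and -0.32 with the family left out. Pfkl, the liver type, had a log2 fold change of -0.38 ± 0.49 as deposited and 0.03 with the family left out, so its sign followed the scaling. Pfkm, the muscle type, had -0.57 ± 0.42 without overlap as deposited, and -0.16 with overlap once the family was left out. Aldolase splits the 6-carbon sugar, and it was the only step whose 2 listed isoforms both had a fold change above 0. Aldoa, the isoform of muscle and of most cells, had 5.43, 25.5 and 3.42 FPKM in HypEV and 4.14, 8.22 and 13.4 FPKM in NorEV. HypEV 2 held most of the HypEV signal of Aldoa, and the log2 fold change was 0.05 ± 0.74, or -0.72 without that library and 0.43 with the family left out. Aldoa has 3 near-identical copies and held 20.6 to 62.0% of the reads on gene and copies. The copy of highest mean, Aldoa-ps4, had 0, 4.59 and 0 FPKM in HypEV and 10.9, 17.9 and 11.6 FPKM in NorEV. The sign of the Aldoa fold change may rest on this split of reads, which was not tested. Aldoc, the isoform of brain, had 3.69, 7.70 and 5.43 FPKM in HypEV and 4.60, 1.52 and 4.56 FPKM in NorEV. Its groups overlapped through HypEV 1 (log2 fold change 0.58 ± 0.58), and with the family left out they did not overlap (log2 fold change 0.96, with 7.28, 7.85 and 7.18 FPKM in HypEV, against 4.81, 1.53 and 4.58 FPKM in NorEV). Aldoc rested on 6 to 31 reads per library.

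Triose phosphate isomerase, which interconverts the 2 products of aldolase, showed no detectable difference. Tpi1 had 14.2, 16.8 and 10.8 FPKM in HypEV and 18.8, 11.01 and 12.9 FPKM in NorEV, a log2 fold change of -0.01 with a 95% interval of -0.96 to 0.93, and of 0.41 with the family left out. Gapdh, which oxidises glyceraldehyde 3-phosphate and is often the most abundant glycolytic mRNA of a cell, had 3.55, 9.04 and 3.22 FPKM in HypEV and 6.40, 8.17 and 7.53 FPKM in NorEV. Gapdh stood at percentile 42.4 of tested protein-coding genes, and its groups overlapped through HypEV 2 (log2 fold change -0.53 ± 0.53, and -0.16 with the family left out). Gapdh has 97 near-identical copies in the annotation (at least 90% identity over at least 80% of the shorter sequence), of which 84 were above 0 in a library. Gapdh itself held 15.8 to 28.4% of the reads on the gene and its copies, so the split of these reads is uncertain.

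Pgk1, phosphoglycerate kinase, makes the first ATP of the pathway. Pgk1 had 3.07, 8.34 and 3.73 FPKM in HypEV and 10.5, 10.1 and 12.1 FPKM in NorEV, or 5.05 ± 2.87 FPKM in HypEV and 10.9 ± 1.06 FPKM in NorEV (SD, n = 3 each). The groups did not overlap, on 9 to 33 reads per library, and the log2 fold change was -1.07 ± 0.49 (limma adjusted p = 0.720) and -0.71 with the family left out, still without overlap. Pgk1 was also the one member whose HypEV libraries all stayed below NorEV after each library was centred on its median. Pgam1, phosphoglycerate mutase, was listed at 0 in HypEV 1, stood at 10.6 FPKM in HypEV 2 and 3.31 FPKM in HypEV 3, and had 7.997, 5.02 and 9.14 FPKM in NorEV. The groups overlapped on both scalings, and Pgam1 held 42.6 to 100% of the reads on the gene and its 3 near-identical copies where any were counted.

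Enolase makes phosphoenolpyruvate, and its 2 listed isoforms mark most cells (Eno1) and neurons (Eno2). Eno1 had 7.37, 43.0 and 14.2 FPKM in HypEV and 16.7, 33.5 and 26.7 FPKM in NorEV, with HypEV 2 above all other libraries (log2 fold change -0.53 ± 0.63). Without HypEV 1 that value was 0.0094, and with the family left out -0.12. Eno2, the neuron-specific enolase, had 3.51, 9.16 and 9.21 FPKM in HypEV and 16.04, 10.4 and 11.7 FPKM in NorEV. Each HypEV library of Eno2 lay below each NorEV library as deposited (log2 fold change -0.80 ± 0.49, limma adjusted p = 0.754), and the groups overlapped with the family left out (-0.42). Eno1 stood above Eno2 in all 6 libraries. Eno1 has 4 near-identical copies, among them the protein-coding Eno1b, and held 46.4 to 70.95% of the reads on gene and copies.

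Pkm, the pyruvate kinase gene of muscle, brain and most other cells, makes pyruvate and the last ATP of the pathway. Pkm had 18.6, 25.0 and 19.9 FPKM in HypEV and 10.2, 18.6 and 21.2 FPKM in NorEV. Only NorEV 1 stood clearly below the others (log2 fold change 0.38 ± 0.42, limma adjusted p = 0.811). With the family left out all 3 HypEV libraries (36.8, 25.5 and 26.3 FPKM) were above all 3 NorEV libraries (10.6, 18.7 and 21.2 FPKM), at a log2 fold change of 0.81 ± 0.36 (limma adjusted p = 0.860 in that fit). Pkm shares 767 bases with Gm49759 on the same strand, and its reads there can be split either way. Pkm also has 5 near-identical copies. It held 55.1% of the reads on gene and copies in NorEV 1 and 78.05 to 90.65% in the other libraries. The copy Gm6560 had 10.4 FPKM in NorEV 1 and 1.68 to 3.91 FPKM in the other libraries. The low Pkm value of NorEV 1 thus coincides with this split of reads, and its part in the fold change was not tested.

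Ldha, the lactate dehydrogenase subunit that favours lactate and a known HIF target, had the highest mean level of the members and stood at percentile 99.5 of tested protein-coding genes. Ldha (ENSMUSG00000063229, chromosome 7, 46841475 to 46855627, GRCm38) had 25.7, 62.9 and 18.4 FPKM in HypEV and 46.4, 118 and 87.7 FPKM in NorEV, on 44 to 303 reads. The groups overlapped, since HypEV 2 was above NorEV 1, and the means were 35.7 ± 23.9 FPKM in HypEV and 84.1 ± 36.0 FPKM in NorEV (SD, n = 3 each). Its log2 fold change was -1.31, with a 95% interval of -2.60 to -0.02 that is not adjusted for the number of genes. With the family left out the value was -0.88 ± 0.49, and over all alternatives that leave out 1 library it was -1.80 to -0.94. Ldha has 9 near-identical copies and held 75.9 to 90.9% of the reads on gene and copies. Ldhb, the subunit of heart and of neurons, had a log2 fold change of -0.48 ± 0.54, or -0.07 with the family left out, and Ldha stood above Ldhb in all 6 libraries.

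**Figure D2:**
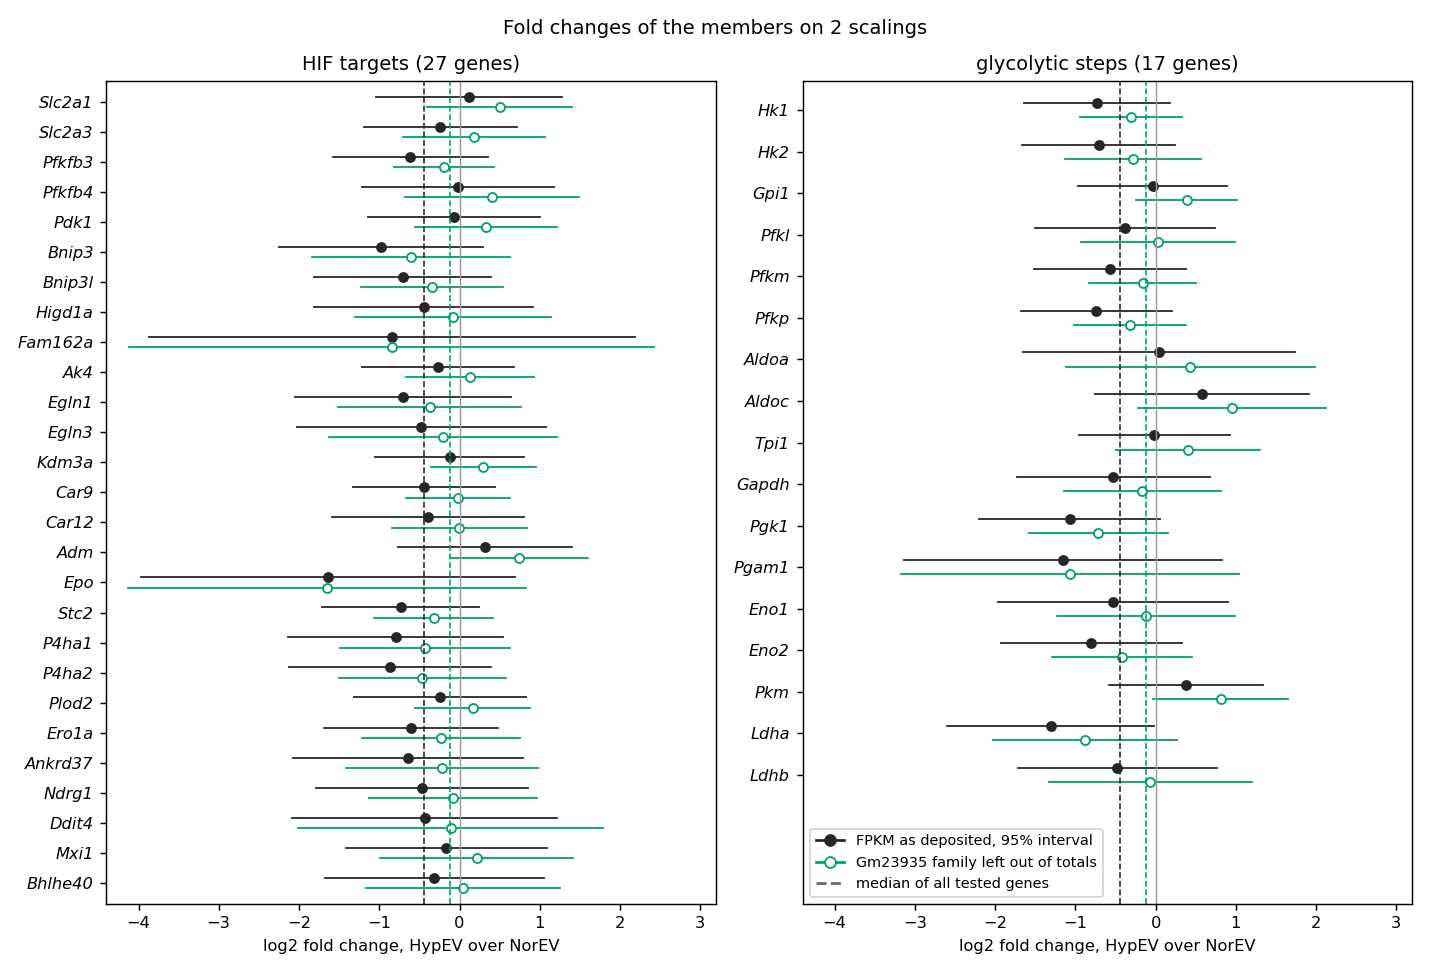
Log2 fold change of each member, HypEV over NorEV, with its 95% interval from limma; filled black marks are FPKM as deposited, open green marks have the Gm23935 family taken out of the totals, and dashed lines are the medians of all tested genes on each scaling. All intervals cross 0 except that of Ldha as deposited (-2.60 to -0.02); the marks of Epo, Fam162a and Pgam1 rest on libraries at 0 and depend on the pseudocount of 1.

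Among the HIF targets outside the pathway, the carriers that bring glucose in came first. Slc2a3, the main glucose transporter of neurons, had 12.2, 15.6 and 9.44 FPKM in HypEV and 19.3, 11.5 and 13.8 FPKM in NorEV, with overlapping groups (log2 fold change -0.24 ± 0.42, and 0.18 with the family left out). It stood above Slc2a1, the transporter of glia and of the blood-brain barrier, in all 6 libraries. Slc2a1 had 4.30, 10.6 and 5.57 FPKM in HypEV and 6.74, 4.56 and 6.36 FPKM in NorEV, and with the family left out its HypEV libraries (8.49, 10.8 and 7.36 FPKM) were above its NorEV libraries (7.04, 4.58 and 6.38 FPKM). Of the enzymes that set the flux, Pfkfb3, which makes the activator of phosphofructokinase, had 11.1, 26.4 and 20.5 FPKM in HypEV and 27.8, 28.9 and 28.4 FPKM in NorEV. The NorEV libraries of Pfkfb3 lay close together (28.4 ± 0.53 FPKM, SD, n = 3) and all above HypEV (log2 fold change -0.61 ± 0.42, and -0.19 with the family left out, still without overlap). Its relative Pfkfb4 and the pyruvate dehydrogenase kinase Pdk1, which holds pyruvate back from the citric acid cycle, had log2 fold changes of -0.02 ± 0.52 and -0.06 ± 0.47. On totals without the family both were above 0, at 0.40 for Pfkfb4 and 0.33 for Pdk1, with overlapping groups.

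The 5 members grouped here as mitochondrial proteins, a group that does not hold Pdk1, all had fold changes below 0 as deposited. Of these, 4 lay below the median of all tested genes (-0.44). With the family left out 4 were below 0 and Ak4 above. Bnip3, a receptor for the removal of mitochondria, had 5.58, 9.06 and 2.16 FPKM in HypEV and 9.38, 8.86 and 14.5 FPKM in NorEV. Only HypEV 2 reached the NorEV range (log2 fold change -0.97 ± 0.56, limma adjusted p = 0.748, and -0.60 with the family left out). Bnip3 has 4 near-identical copies, of which Gm6532 was above Bnip3 itself in all 6 libraries (11.7, 44.5 and 8.13 FPKM in HypEV and 32.7, 64.6 and 28.7 FPKM in NorEV). Ak4, an adenylate kinase of the mitochondrial matrix, had 6.96, 9.20 and 8.86 FPKM in HypEV and 11.5, 8.44 and 10.9 FPKM in NorEV, with overlapping groups (-0.27 ± 0.41, and 0.13 with the family left out). Its near-identical copy Ak3l2-ps was above Ak4 in 4 libraries, and Ak4 held 70.3 to 93.2% of the reads on both. Fam162a, a mitochondrial protein linked to cell death at low oxygen, was listed at 0 in HypEV 1 and 3 and had 28.3 FPKM in HypEV 2, against 1.44, 4.46 and 11.6 FPKM in NorEV. One HypEV library of Fam162a was thus the highest of all and the others the lowest, and it was named after its values were seen.

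Enzymes that need oxygen as a substrate include the prolyl hydroxylases that mark HIF for degradation and a histone demethylase. Egln1, the main HIF prolyl hydroxylase, had 2.08, 5.97 and 3.16 FPKM in HypEV and 3.56, 10.0 and 6.70 FPKM in NorEV. Its groups overlapped (log2 fold change -0.71 ± 0.59, and -0.37 with the family left out), and Egln3, the isoform that HIF raises most in many cells, stood below Egln1 in 5 of 6 libraries. Kdm3a, a demethylase of histone H3, had 12.1, 23.4 and 17 FPKM in HypEV and 15.3, 19.2 and 21.6 FPKM in NorEV. Kdm3a was among the members without overlap once the family was left out, at 23.9, 23.8 and 22.5 FPKM in HypEV and 15.96, 19.4 and 21.7 FPKM in NorEV (log2 fold change 0.30, against -0.12 as deposited).

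Car9, a carbonic anhydrase of the cell surface that is widely used as a marker of low oxygen, had 13.6, 23.9 and 18.7 FPKM in HypEV and 26.7, 21.3 and 28.1 FPKM in NorEV. The groups overlapped through HypEV 2, and the log2 fold change was -0.44 ± 0.39 (limma adjusted p = 0.798), like the median of all tested genes, and -0.02 with the family left out. Car9 stood above its relative Car12 in all 6 libraries. Adm, the vasodilator peptide adrenomedullin, had 13.1, 28.4 and 28.3 FPKM in HypEV and 20.4, 11.2 and 23.1 FPKM in NorEV. HypEV 1 was the exception among otherwise higher HypEV libraries of Adm (log2 fold change 0.32 ± 0.47), and with the family left out HypEV (25.9, 28.9 and 37.4 FPKM) was above NorEV (21.3, 11.3 and 23.2 FPKM), at 0.74 ± 0.36. Stc2, the secreted glycoprotein stanniocalcin, had 8.09, 14.8 and 17.3 FPKM in HypEV and 19.1, 20.1 and 27.4 FPKM in NorEV. All HypEV libraries of Stc2 were below all NorEV libraries (log2 fold change -0.73 ± 0.43), with overlap once the family was left out (-0.32).

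Epo, the hormone erythropoietin and the gene on which the HIF site was first described, was named after its values were seen. Epo was listed at 0 in HypEV 1 and 3 and had 9.71 FPKM in HypEV 2, against 8.56, 9.10 and 2.35 FPKM in NorEV. These values are 0, 12 and 0 reads in HypEV and 8, 11 and 3 reads in NorEV, and the limit that a count of 0 sets is 3 reads, which is 0.000140% of the reads in HypEV 1 and 0.000227% in HypEV 3 (counting error only). Epo shares 104 bases with Gnb2 on the same strand, which is another possible source of its reads and was not tested.

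Of the enzymes that modify collagen and form disulfides, P4ha2, a collagen prolyl hydroxylase subunit, had 7.63, 23.5 and 6.19 FPKM in HypEV and 17.3, 16.4 and 27.8 FPKM in NorEV. HypEV 2 lay inside the NorEV range and the other HypEV libraries of P4ha2 below it (log2 fold change -0.87 ± 0.55, and -0.46 with the family left out). Plod2, a collagen lysyl hydroxylase, had 8.16, 24.5 and 14.5 FPKM in HypEV and 18.7, 15.3 and 17.9 FPKM in NorEV, with overlapping groups (-0.25 ± 0.47, and 0.16 with the family left out). Ero1a, the oxidase that drives disulfide formation in the endoplasmic reticulum, had 3.70, 4.07 and 3.60 FPKM in HypEV and 6.84, 6.41 and 5.60 FPKM in NorEV. Both groups of Ero1a were tight and did not overlap as deposited, at 3.79 ± 0.25 FPKM in HypEV and 6.28 ± 0.62 FPKM in NorEV (SD, n = 3 each). limma did not call Ero1a (log2 fold change -0.60 ± 0.47, adjusted p = 0.797), and its groups overlapped with the family left out (-0.23).

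Ankrd37, an ankyrin repeat protein and a known HIF target, had the highest mean level of the HIF targets outside glycolysis, at percentile 99.3 of tested protein-coding genes. It had 16.1, 59.7 and 38.4 FPKM in HypEV and 24.7, 69.5 and 85.9 FPKM in NorEV. Libraries of both groups were spread widely and overlapped (log2 fold change -0.65 ± 0.63, limma adjusted p = 0.80, and -0.22 with the family left out). Ankrd37 overlaps Lrp2bp over 349 bases and Ufsp2 over 57 bases on the opposite strand, and whether the counting used strand was not stated in the sources used here. The other growth and transcription regulators, Ndrg1, Ddit4, Mxi1 and Bhlhe40, had log2 fold changes between -0.47 and -0.16 as deposited. Once the family was left out, Mxi1 (0.215) and Bhlhe40 (0.0408) were above 0 and Ndrg1 (-0.0815) and Ddit4 (-0.11) below.

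Counted together, 5 of 44 members had a fold change above 0 and 39 below it. Of all 44125 tested genes 33032 were below 0, as were 16383 of 20356 protein-coding genes, and the median over all tested genes was itself -0.44. Without HypEV 1, the library with most Gm23935 reads, 15 members were above 0 and 29 below and that median was -0.20, and without HypEV 2 it was -0.73. After each library was centred on its median, 20 members were above 0 and 24 below (21833 of 44125 tested genes were below). With the family left out 16 members were above and 28 below (25207 of the same 44125 genes were below), beside a median of -0.12 over all tested genes. The groups did not overlap with HypEV lower in 7 of 44 members (10.8% of all tested genes did so): Hk1, Pfkm, Pgk1, Eno2, Pfkfb3, Stc2 and Ero1a. They did not overlap with HypEV higher in 0 of 44 (1.10%). With the family left out, HypEV was lower without overlap in 3 members (6.28% of 44538 genes), Hk1, Pgk1 and Pfkfb3, and higher without overlap in 6 (3.99%), Gpi1, Aldoc, Pkm, Slc2a1, Kdm3a and Adm. After centring each library on its median, HypEV was lower without overlap in 1 member (5.48%), Pgk1, and higher in 5 (5.87%), Aldoc, Pkm, Slc2a1, Kdm3a and Adm. Pfkm, Ero1a and Slc2a1 are named from these counts, after their values were seen. The counts of members that separated in each direction thus moved with the scaling, as did the shares over all tested genes. No member was called on any of these scalings.

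HIF targets and glycolytic enzymes lay close to each other in their fold changes. The 27 HIF targets had a median log2 fold change of -0.45, with 2 above 0 and 25 below, and 12 higher than the median over all tested genes. The 17 glycolytic enzymes had a median of -0.53, with 3 above 0 and 14 below, and 6 higher than that median. On totals without the family the HIF targets had a median of -0.08, with 10 above 0, and the glycolytic enzymes -0.16, with 6 above 0, beside -0.12 over all tested genes. The difference of the medians, HIF targets minus glycolytic enzymes, was 0.09, and -0.01 to 0.28 with 1 library left out. Within single libraries the HIF targets lay below the glycolytic enzymes every time: the difference of their median log2(FPKM + 1) levels was -0.96, -0.63 and -0.49 in HypEV and -0.71, -0.58 and -0.38 in NorEV. The group means of that difference, -0.70 ± 0.24 in HypEV and -0.56 ± 0.16 in NorEV (SD, n = 3 each), differed by less than the spread between libraries (pooled SD 0.21). Set against the median level of all tested genes, the glycolytic enzymes lay higher by 1.44 ± 0.11 in HypEV and 1.16 ± 0.22 in NorEV, a difference of 0.28 that was larger than the pooled SD of 0.18, with overlapping groups. The HIF targets lay higher by 0.74 ± 0.15 in HypEV and 0.60 ± 0.16 in NorEV, a difference of 0.14 that was within the pooled SD of 0.15. For the glycolytic enzymes this difference of median levels was above 0, while the median of their fold changes was 0.09 below that of all tested genes.

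**Figure D3:**
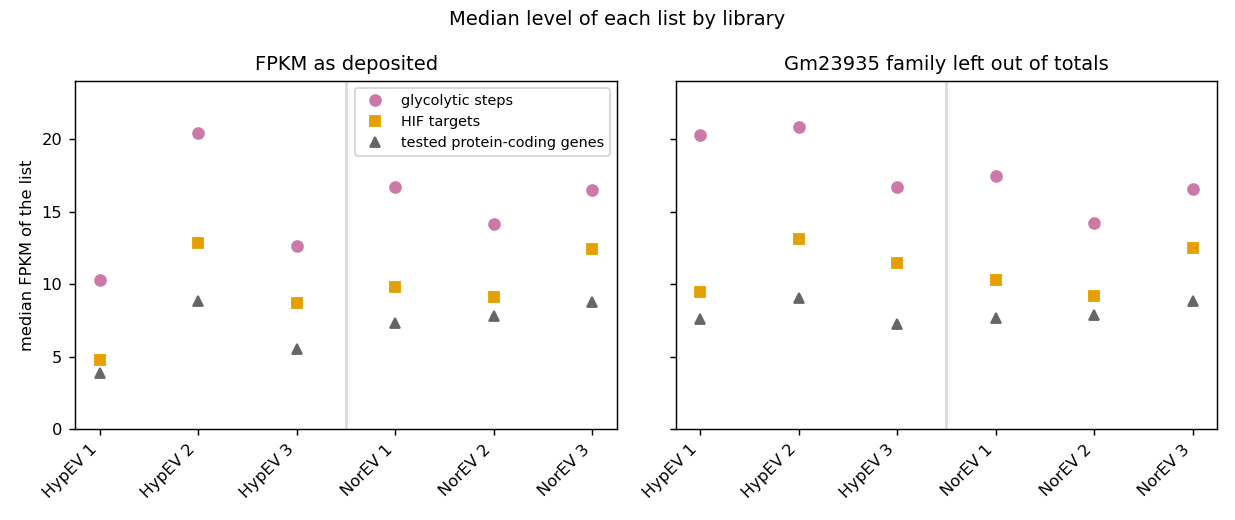
Median FPKM of the glycolytic enzymes, the HIF targets and all tested protein-coding genes in each library, as deposited (left) and on totals without the Gm23935 family (right). Glycolytic enzymes lie above HIF targets and HIF targets above protein-coding genes in all 6 libraries on both scalings.

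The median level of the glycolytic enzymes was 10.3, 20.4 and 12.6 FPKM in HypEV and 16.7, 14.1 and 16.5 FPKM in NorEV, and that of the HIF targets 4.77, 12.8 and 8.66 FPKM in HypEV and 9.83, 9.10 and 12.4 FPKM in NorEV. Both medians lay above that of tested protein-coding genes in every library (3.86, 8.83 and 5.49 FPKM in HypEV and 7.32, 7.83 and 8.79 FPKM in NorEV), and all 3 were lowest in HypEV 1, the library with most Gm23935 reads. With the family left out, HypEV 1 was no longer the lowest for glycolytic enzymes, at 20.3, 20.8 and 16.7 FPKM in HypEV and 17.5, 14.2 and 16.6 FPKM in NorEV. The median percentile among tested protein-coding genes was 88.2 for glycolytic enzymes and 63.4 for HIF targets. The order of the 44 members was alike across libraries, with Spearman correlations of 0.65 to 0.80 between HypEV libraries, 0.775 to 0.873 between NorEV libraries and 0.646 to 0.809 across the groups (n = 44 genes that share libraries, as a description).

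The balance between isoforms of one step moves little with the library total, and it did not separate the groups. For 12 pairs, such as Hk2 and Hk1 or Ldha and Ldhb, the difference of log2(FPKM + 1) within each library overlapped between HypEV and NorEV in every pair. Ldha minus Ldhb was 0.80, 1.63 and 1.28 in HypEV and 0.48, 2.98 and 2.74 in NorEV, so NorEV held both the lowest and the highest values. Eno1 minus Eno2 was 0.89, 2.11 and 0.57 in HypEV and 0.05, 1.60 and 1.12 in NorEV. Slc2a1 minus Slc2a3 was below 0 throughout, at -1.32, -0.52 and -0.67 in HypEV and -1.39, -1.17 and -1.01 in NorEV.

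Glycolytic isoforms known from muscle, liver or testis were also present, some below and some above the listed isoforms. Eno3, the muscle enolase, stood at 18.8, 43.3 and 25.7 FPKM in HypEV and 43.9, 53.4 and 46.6 FPKM in NorEV. That put Eno3 above both Eno1 and the neuronal Eno2 in all 6 libraries, but in HypEV 2 only just above Eno1 (43.0 FPKM). Reads on the near-identical copies of Eno1 are not in its value, and Eno1b alone had 11.4 FPKM in HypEV 2. The order of Eno3 and Eno1 therefore depends on how these reads were split. Pgam2, the mutase of muscle, stood above Pgam1 in 5 libraries, on 4 to 17 reads per library. Reads on the copies of Pgam1 are not in its value, and the copy Gm11203 had 17.7 FPKM in HypEV 2 and 12.6 FPKM in NorEV 3. The order of Pgam2 and Pgam1 in these libraries therefore depends on how reads were split. Pklr, the pyruvate kinase of liver and red cells, stayed below Pkm, and the testis gene Pgk2 below Pgk1, in all 6 libraries. Of the 13 such isoforms read here 3 had fold changes above 0 and 10 below (6 and 7 with the family left out), and 0 were called by limma on either scaling. The one of smallest p was Ldhc, the lactate dehydrogenase of testis (1.36, 8.08 and 3.32 FPKM in HypEV and 8.02, 13.4 and 23.4 FPKM in NorEV, log2 fold change -1.70 ± 0.64, adjusted p = 0.720), whose groups overlapped through HypEV 2 and NorEV 1. Once the family was left out, all HypEV libraries of Ldhc (2.69, 8.24 and 4.38 FPKM) were below all NorEV libraries (8.38, 13.5 and 23.5 FPKM), at -1.39 with an unadjusted 95% interval of -2.64 to -0.15 (limma adjusted p = 0.860).

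**Figure D4:**
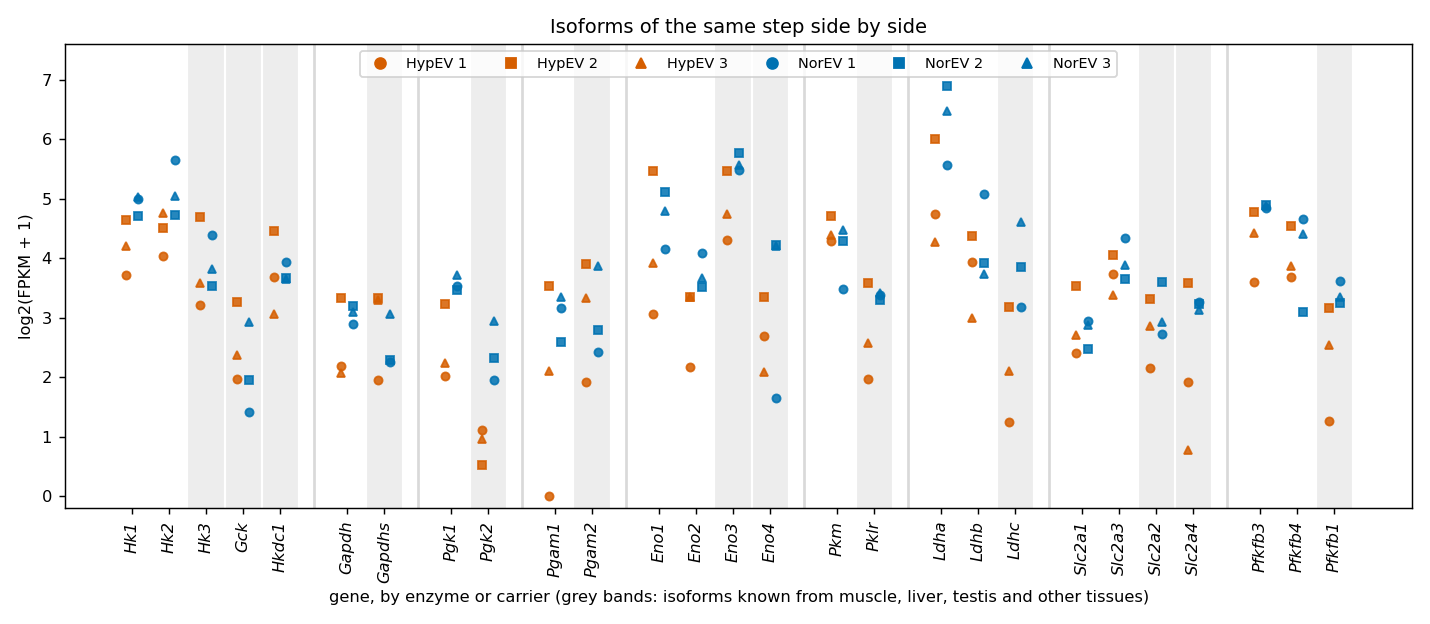
Level of each isoform by enzyme or carrier, on the log2(FPKM + 1) scale, in the 3 HypEV libraries (orange, left of each position) and the 3 NorEV libraries (blue, right); grey bands mark isoforms known from muscle, liver, testis and other tissues. Eno3 lies above Eno1 (drawn without its near-identical copies) and Eno2 in each library, and Pklr below Pkm.

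Pathways around the members gave no called gene either. Of 12 proteins that make up or control HIF, 3 had fold changes above 0 and 9 below, with a list median of -0.41 (5, 7 and -0.04 with the family left out). The one of smallest p, Vhl, the ubiquitin ligase subunit that binds hydroxylated HIF, had 5.52, 12.9 and 3.25 FPKM in HypEV and 11.5, 18.2 and 9.11 FPKM in NorEV, with overlap (limma adjusted p = 0.757) on both scalings. Of 13 genes for handling pyruvate and lactate, 4 were above 0 and 9 below, with a list median of -0.32 (9, 4 and 0.09 with the family left out). Slc16a3, the lactate exporter MCT4 and itself a known HIF target, had 3.55, 9.57 and 3.67 FPKM in HypEV and 11.4, 13.4 and 15.6 FPKM in NorEV. Each HypEV library of Slc16a3 was below each NorEV library (log2 fold change -1.24 ± 0.50, limma adjusted p = 0.720), and again with the family left out (-0.87). The citric acid cycle had 2 of 14 genes above 0, with a median of -0.42, and the pentose phosphate pathway 2 of 7, with a median of -0.59. These became 7 of 14 with a median of 0.0094 and 3 of 7 with a median of -0.27 on totals without the family. In the cycle the smallest p was that of Sucla2, a subunit of succinyl-CoA ligase, with 7.96, 15.5 and 13.2 FPKM in HypEV and 27.9, 17.1 and 24.3 FPKM in NorEV (log2 fold change -0.89 ± 0.43, limma adjusted p = 0.720), whose groups overlapped only with the family left out (-0.47). In the pentose phosphate pathway it was that of Taldo1, transaldolase, with 2.40, 13.7 and 1.11 FPKM in HypEV and 12.8, 6.75 and 16.2 FPKM in NorEV (-1.37 ± 0.76, limma adjusted p = 0.741, and -1.06 with the family left out).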

How the data were processed

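The authors deposited 1 table of FPKM values per library, and the names of these tables mention HTSeq, a read counter. The aligner, genome build and annotation are not given in the sources used here. RNA was extracted with Trizol and libraries were made with an Epibiotek long RNA kit, per the labels' protocols. Identifiers were matched to GENCODE M21 (GRCm38), which holds 53274 of 53379. With transcript lengths from it, 96.0% of values above 0 were whole reads (tolerance 0.01 reads), in all libraries for 51485 genes and for 40 members; depth was read from these.

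HypEV was compared with NorEV on log2(FPKM + 1), for genes averaging at least 1 FPKM, using limma 3.58.1 in R 4.3.3 (two-sided, eBayes with a variance trend and no covariates). Calls have a Benjamini-Hochberg adjusted p under 0.05 over all tested genes. Near-identical copies came from blastn 2.17.0 (at least 500 bases, at most 1.5 times the member's length) and exon overlaps from bedtools 2.31.1. Such copies were found for 12 members. The script was tested on simulated data.

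Members and lists were chosen with earlier results of these data known. In each role the member of smallest p and that of highest mean are named, with the gene of smallest p of each other list; further members were named after their values were seen. Alternatives were a pseudocount of 0.1, other filters, scalings and weights, no trend, a replicate block, limma-voom and leaving out each library. One gene of the isoform list is not reported here.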

Additional observations from a re-analysis of the deposited data

How the results depend on the processing

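limma called 7 genes of the whole table. That count was 0 with a pseudocount of 0.1, no filter, no trend, each library centred on its median, or a replicate block, 75 with array weights, 232 with limma-voom, 60 with limma-voom on totals without the Gm23935 family, and 0 to 71 with 1 library left out (71 without HypEV 2). The count of called members was 0 under all 17 alternatives, with a smallest adjusted p of 0.105 (Ldha, array weights). Replicate numbers did not pair the libraries: same-numbered libraries had correlations of their deviations of 0.0446, 0.102 and -0.0582, and in the fit with the replicate block 0 members passed (smallest adjusted p 0.625, Ldha). The list medians relative to all tested genes, -0.0044 for HIF targets and -0.0915 for glycolytic enzymes, ranged over alternatives from -0.06 to 0.11 and from -0.22 to 0.02. Each alternative lay within 1 pooled SD between libraries (0.15 and 0.18) of the reported value.

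Of 652 fold changes of the 39 members given with values under alternatives, 75 changed sign, in 18 members, and the cause was not tested. Centred on the median they were Gpi1 0.41, Pfkl 0.0654, Tpi1 0.44, Slc2a3 0.21, Pfkfb4 0.43, Pdk1 0.39, Ak4 0.18, Kdm3a 0.33, Car9 0.0084, Plod2 0.20, Ddit4 0.0183, Mxi1 0.29 and Bhlhe40 0.14, and under quantile normalization Gpi1 0.39, Pfkl 0.0294, Tpi1 0.41, Slc2a3 0.18, Pfkfb4 0.41, Pdk1 0.33, Ak4 0.13, Kdm3a 0.28, Plod2 0.18, Ddit4 0.13, Mxi1 0.22 and Bhlhe40 0.12. With the family left out of FPKM totals they were Gpi1 0.39, Pfkl 0.0328, Tpi1 0.41, Slc2a3 0.18, Pfkfb4 0.40, Pdk1 0.33, Ak4 0.13, Kdm3a 0.30, Plod2 0.16, Mxi1 0.21 and Bhlhe40 0.0408, and in limma-voom without it Gpi1 0.42, Pfkl 0.078, Tpi1 0.47, Ldhb 0.0516, Slc2a3 0.22, Pfkfb4 0.49, Pdk1 0.32, Ak4 0.14, Kdm3a 0.30, Plod2 0.21 and Bhlhe40 0.008. Array weights gave Gpi1 0.0283, Aldoa -0.86, Pdk1 0.12 and Mxi1 0.19, and limma-voom Aldoa -0.0773 and Tpi1 0.0203. With 1 library left out the ranges were -0.27 to 0.24 (Gpi1), -0.72 to 0.57 (Aldoa), -0.17 to 0.19 (Tpi1), -1.19 to 0.0094 (Eno1), -0.21 to 0.36 (Slc2a1), -0.50 to 0.28 (Pfkfb4), -0.30 to 0.18 (Pdk1), -0.35 to 0.10 (Kdm3a), -0.62 to 0.12 (Plod2), -0.80 to 0.0606 (Ndrg1), -0.95 to 0.21 (Ddit4), -0.55 to 0.0442 (Mxi1) and -0.55 to 0.12 (Bhlhe40). Precision is limited by a median of 47 reads per member and library, with a median SE of 0.52 on the log2 scale.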

Other observations

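Markers of many cell types stood beside the members in the vesicles, whose own median was 10.3 ± 4.45 FPKM in HypEV and 12.3 ± 1.25 FPKM in NorEV. The median of 12 pan-neuronal markers was 8.37 ± 2.37 FPKM in HypEV and 9.37 ± 1.29 FPKM in NorEV, and that of 6 astrocyte markers 8.15 ± 3.88 FPKM in HypEV and 11.2 ± 2.69 FPKM in NorEV (SD over 3 libraries each). For 6 microglia markers it was 7.002 ± 1.37 FPKM in HypEV and 8.13 ± 1.70 FPKM in NorEV, and for 6 oligodendrocyte markers 3.24 ± 1.47 FPKM in HypEV and 3.75 ± 0.99 FPKM in NorEV. Endothelial and mural markers had 8.38 ± 4.48 FPKM in HypEV and 12.4 ± 5.67 FPKM in NorEV, and 10 genes of liver and muscle 7.83 ± 3.02 FPKM in HypEV and 9.77 ± 1.88 FPKM in NorEV. Tmem119, Olig1, Olig2, Sox10, Cldn5, Apoa1 and Fgb were listed at 0 in at least 1 library, and no pan-neuronal or astrocyte marker was. limma called 0 of these markers, and their part in the members' values was not tested.

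The marker of smallest p was Ttr, transthyretin of liver and choroid plexus, with 8.81, 11.9 and 8.69 FPKM in HypEV and 27.8, 45.9 and 23.6 FPKM in NorEV (log2 fold change -1.59 ± 0.41, limma adjusted p = 0.573, and -1.18 on totals without the Gm23935 family). Kdr, the main VEGF receptor of endothelium, had 6.23, 23.0 and 9.84 FPKM in HypEV and 24.7, 46.0 and 31.9 FPKM in NorEV (-1.47 ± 0.53, adjusted p = 0.712 in limma, and -1.07 on totals without the family). In Ttr and in Kdr all HypEV libraries were below all NorEV libraries on both scalings. The smallest p of the other lists belonged to Tubb3 (log2 fold change -0.71 ± 0.54, or -0.34 without the family), Slc1a3 (-0.97 ± 0.58, or -0.58), Cx3cr1 (-0.66 ± 0.43, or -0.27) and Olig2, which was listed at 0 in HypEV 3 and had 2.49 and 2.27 FPKM in HypEV 1 and 2 and 6.38, 4.06 and 4.67 FPKM in NorEV.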
